A study of Mus musculus with 8 samples.

Results

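The 10 genes described here encode inhibitors of cell death induced by tumour necrosis factor (TNF): Birc2, Birc3, Xiap, Traf1, Traf2, Cflar, Bcl2l1, Mcl1, Ier3 and Sod2. They were chosen by symbol, and each had 1 row among the 45706 gene rows of the count table. All 10 passed the filter on low counts, as did 15049 genes in all. Chromatin-associated RNA, the fraction in which RNA is still being made or released, came from primary C57BL/6 mouse embryonic fibroblasts, either crel-/-rela-/- (KO) or wild type (WT). KO cells lack RelA and cRel, which with RelB are the NF-kB proteins that carry activation domains. Cells of both genotypes spent a night in low serum and then received TNF at 10 ng/ml. Each genotype has 1 library at 0 min (no TNF) and 1 each at 15, 45 and 60 min, so 8 libraries hold no replicates. No library without TNF at the later times was analysed here, so effects of TNF and of elapsed time cannot be told apart. Neither the number of embryos nor the part removed from each allele is given in the sources used here.

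When TNF binds its receptor, an adaptor complex forms in which TRAF2 recruits the ubiquitin ligases cIAP1 (encoded by Birc2) and cIAP2 (Birc3), and this complex activates NF-kB. Without new transcription of protective genes, the same receptor can drive caspase-8 activation and death. The protective products act at several points: at the receptor complex, on caspase-8, on effector caspases, at the mitochondrion and on reactive oxygen species. Several of these genes are textbook NF-kB targets, and fibroblasts without RelA are known to die when exposed to TNF.

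Libraries held 12359817 to 15607331 counts, of which 58.9% to 70.6% fell on 3 gene models (Gm26917, Gm42418 and Malat1), leaving 3948194 to 5644974 for the other genes. Levels are given as CPM, counts scaled to a common library size after TMM normalisation. Counts of Rela were 306, 241, 291 and 324 in KO and 324, 406, 704 and 589 in WT at 0, 15, 45 and 60 min. Those of Rel were 478, 308, 538 and 633 in KO and 151, 173, 805 and 506 in WT. Since the removed part is not given, counts over whole genes check nothing about the labels. The 12 fibroblast markers summed to 10430 to 13701 CPM in KO and 9573 to 12191 CPM in WT, and none was at 0 in every library. The KO 0 min library stood apart: its 6 cartilage markers summed to 437 CPM, against 35.4 to 65.1 CPM in the other KO libraries and 21.0 to 24.3 CPM in WT. Its 8 epithelial markers summed to 15.0 CPM, against 3.53 to 4.61 CPM in the other KO libraries and 0.940 to 1.80 CPM in WT. The 10 macrophage and leukocyte markers summed to 6.12 to 8.21 CPM in KO and 55.6 to 74.5 CPM in WT. Among them the macrophage marker Adgre1 had 0, 0, 0 and 2 counts in KO and 132, 112, 72 and 88 in WT. Cd68 was closer between genotypes, with 93, 77, 67 and 78 counts in KO and 131, 119, 88 and 75 in WT. The 7 endothelial markers, 4 of which reached 10 counts in a library, summed to 9.63 to 15.8 CPM in KO and 4.48 to 6.31 CPM in WT. Kdr and Tek had more counts in KO at every time. Esam had 9, 13, 14 and 9 counts in KO and 15, 15, 14 and 11 in WT, and Pecam1 had 8, 1, 4 and 1 in KO and 0, 1, 8 and 6 in WT. In such bulk samples, fewer cells of a type and less RNA per cell cannot be told apart.

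The promoters of 5 members are shown because these genes differed between genotypes in the tests and their start regions differ in the kB motif, the decamer that NF-kB dimers bind. RefSeq windows of 250 bases before the start (GRCm38.p6) were matched by symbol for all 10 members, 15 windows in all. Both strands were searched for the NF-kB consensus and for a wider frame, GGGNNNNNCC, which holds every consensus match. The consensus was in windows of 3 of 10 members, Ier3, Sod2 and Bcl2l1, against 4.455% of 27025 genes and 3.899% of 32851 windows. The frame was in windows of 7 of 10 members, against 48.651% of genes. The printed sequences read 5′ to 3′ on the gene's strand, and capitals mark a consensus match or, for Birc3, a match of the frame alone.
Birc3: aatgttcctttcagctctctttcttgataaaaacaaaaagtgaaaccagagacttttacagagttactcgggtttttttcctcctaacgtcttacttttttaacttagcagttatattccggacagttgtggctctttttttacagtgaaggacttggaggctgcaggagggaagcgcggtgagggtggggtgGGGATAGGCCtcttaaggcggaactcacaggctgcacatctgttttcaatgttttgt
Traf1: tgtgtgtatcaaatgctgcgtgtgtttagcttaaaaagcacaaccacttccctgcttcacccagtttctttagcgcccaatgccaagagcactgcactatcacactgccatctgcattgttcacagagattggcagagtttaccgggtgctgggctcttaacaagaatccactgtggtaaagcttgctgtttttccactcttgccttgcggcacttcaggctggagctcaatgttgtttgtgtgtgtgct
Ier3: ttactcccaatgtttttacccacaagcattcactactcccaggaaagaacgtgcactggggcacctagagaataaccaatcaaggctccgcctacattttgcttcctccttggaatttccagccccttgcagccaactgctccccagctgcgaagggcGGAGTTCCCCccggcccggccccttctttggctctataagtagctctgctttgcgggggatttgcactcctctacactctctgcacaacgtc
Sod2: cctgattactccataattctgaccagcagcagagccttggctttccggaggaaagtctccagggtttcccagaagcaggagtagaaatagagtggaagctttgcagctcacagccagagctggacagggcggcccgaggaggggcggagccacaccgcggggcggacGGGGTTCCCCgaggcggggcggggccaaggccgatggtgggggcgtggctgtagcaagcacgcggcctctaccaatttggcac
Bcl2l1: tgtttgtgGGGGGTCTCCagcatacgcc
The Birc3 window is chr9:7873171-7873420 (minus strand), and its frame match begins 57 bases before the start. The Traf1 window, chr2:34961773-34962022 (minus strand), held neither motif, nor did either of the windows of Birc2. The Ier3 window is chr17:35821463-35821712 (plus strand), with the consensus on the opposite strand 92 bases before the start. The Sod2 window is chr17:13007589-13007838 (plus strand), and its match, 83 bases before the start, reads as a consensus on both strands. For Bcl2l1, 28 bases around the match are shown, chr2:152830940-152830967 (minus strand), 242 bases before 1 of its 3 annotated starts. A match is only a description of these letters, and its absence says nothing about sites elsewhere.

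Before TNF the genes stood in the same order of level in both genotypes. Per kilobase of exon at 0 min, Mcl1 was highest, with 35.6 CPM per kb in KO and 31.3 CPM per kb in WT, and Bcl2l1 followed with 9.26 in KO and 7.90 in WT. Ier3, Birc2, Cflar, Xiap and Traf2 came next, from 5.50 down to 2.78 CPM per kb in KO and from 5.07 down to 3.02 in WT. Birc3 (1.73 in KO, 2.22 in WT) and Sod2 (1.69 in KO, 1.81 in WT) were low, and Traf1 was close to the limit of detection at 0.0543 CPM per kb in KO and 0.0454 in WT. With 1 library per genotype there is no spread to set neighbours in this order against. No member's ratio of KO to WT at 0 min reached 2-fold, against 2.48% of genes at least 2-fold higher and 3.8% lower by the rule for single times given below.

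**Figure D1:**
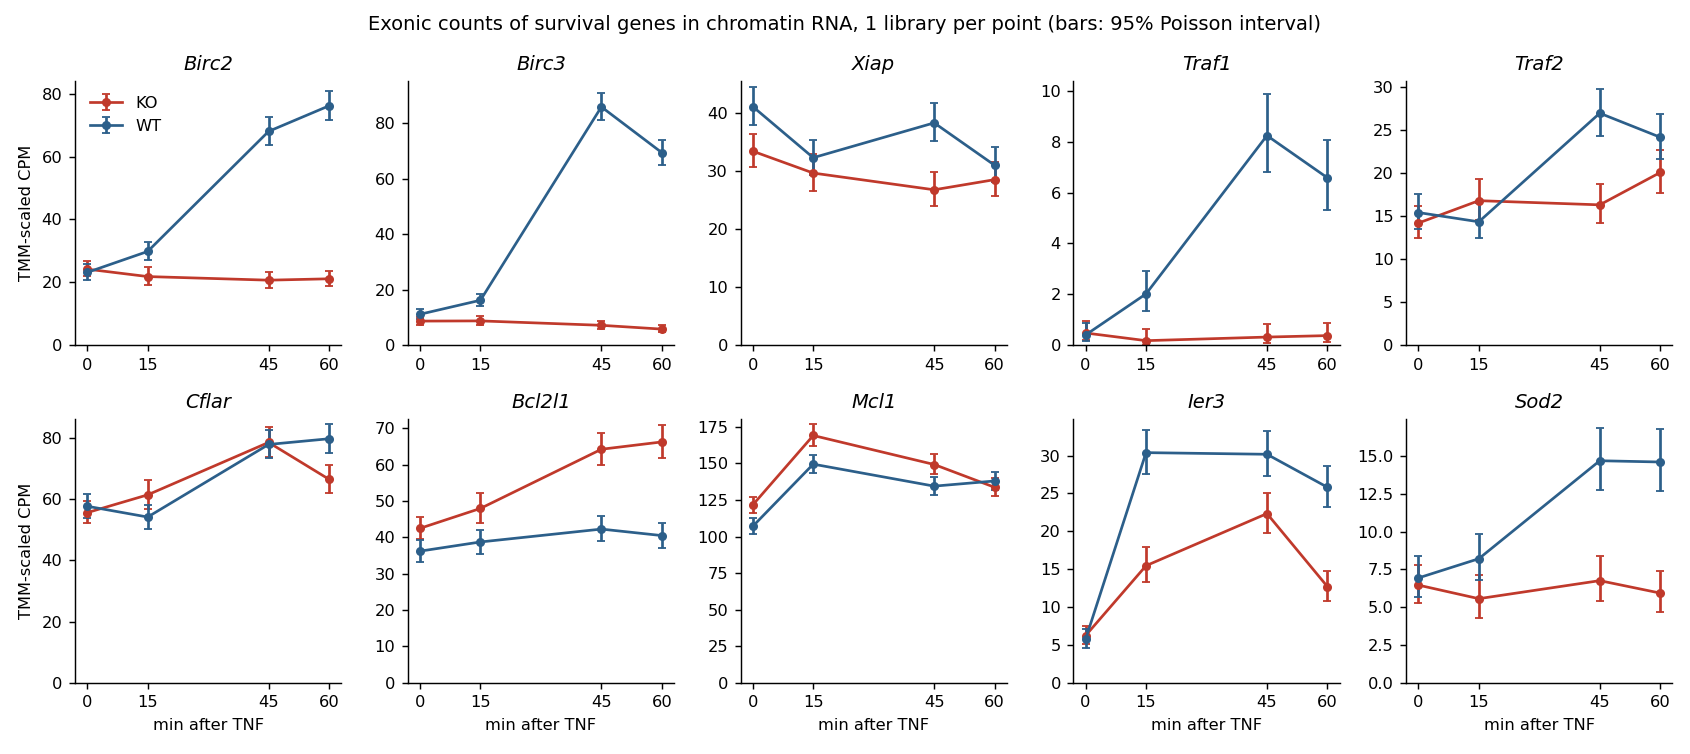
TMM-scaled CPM of each of the 10 survival genes against minutes after TNF, with KO in red and WT in blue; each point is 1 library and bars are 95% Poisson intervals of counting error. At 45 and 60 min KO lies well below WT for Birc2, Birc3, Traf1 and Sod2, while Cflar and Mcl1 follow similar courses.

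In WT cells 5 of the 10 genes rose late after TNF and none fell, and in KO cells 1 rose and none fell. The late response is the mean of the 45 and 60 min libraries against 0 min, tested with edgeR's quasi-likelihood test and called at a Benjamini-Hochberg adjusted p under 0.05 over all 15049 genes. Among all tested genes, 4.17% were called higher and 1.31% lower in WT, and 1.32% higher and 0.518% lower in KO. The median log2 fold change of the 10 genes was 0.10 in KO and 0.90 in WT, with medians over all genes of -0.01 in KO and -0.004 in WT. The direct test of the difference, KO response minus WT response, called 3 of the 10 lower (Birc2, Birc3 and Traf1) and none higher, against 0.492% of all genes lower and 0.00664% higher. With 15 min as the baseline, which leaves the KO 0 min library out of the contrast, 0 members were called in KO, 4 in WT (Birc2, Birc3, Traf1 and Traf2) and 1 in the difference (Birc3). Nothing in the labels says that libraries came from separate cultures. Since 2 times stand in for replicates, p-values measure only the spread between these libraries. In this fit that spread comes from 45 against 60 min within each genotype, so it includes any change between those times. The 0 min libraries add nothing to it.

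**Figure D2:**
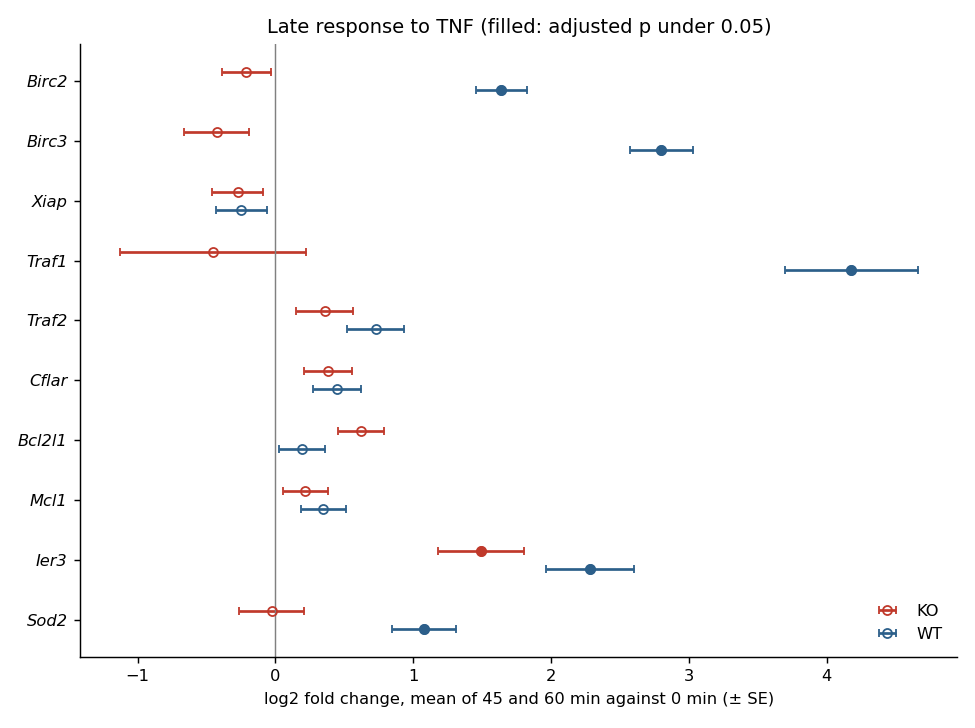
Log2 fold change of the mean of 45 and 60 min against 0 min for each gene, with its standard error as the bar, in KO (red) and WT (blue); filled points have an adjusted p under 0.05. Ier3 is the filled point in KO, and Birc2, Birc3, Traf1, Ier3 and Sod2 are filled in WT.

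Birc2 and Birc3, the ubiquitin ligase genes of the receptor complex, lie 11634 bases apart on the minus strand of chromosome 9 (Birc2 at 7818227 to 7837064, Birc3 at 7848699 to 7873186, mm10). Birc3 had 8.68, 8.74, 7.15 and 5.78 CPM in KO at 0, 15, 45 and 60 min, and 11.1, 16.2, 85.9 and 69.4 CPM in WT. Both late WT libraries were far above every other library. All 4 KO libraries lay below the lowest WT library, for which a share over all genes was not computed. In WT the late log2 fold change was 2.80 ± 0.23 (SE, adjusted p = 1.87e-05, edgeR), while the KO value of -0.43 ± 0.24 was not called (adjusted p = 0.374, edgeR). The responses differed by -3.23 ± 0.32 (KO minus WT, adjusted p = 0.000318, edgeR).

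Birc2 had 24.2, 21.8, 20.7 and 21.1 CPM in KO and 23.1, 29.8, 68.0 and 76.1 CPM in WT. The genotypes were close at 0 min and far apart at both late times. The late log2 fold change was -0.21 ± 0.18 in KO (adjusted p = 0.575) and 1.64 ± 0.19 in WT (adjusted p = 0.000265, edgeR), and the responses differed by -1.85 ± 0.25 (adjusted p = 0.00535). With 15 min as the baseline in place of 0 min the difference was -1.34 and was not called (adjusted p = 0.0844, edgeR). Although the neighbours rose together in WT, their balance moved. Per kb of exon, the level of Birc3 over that of Birc2 was 0.328, 0.366, 0.317 and 0.251 in KO and 0.440, 0.497, 1.16 and 0.834 in WT, so that Birc3 exceeded Birc2 in the WT 45 min library and in no other.

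Xiap, whose product directly inhibits effector caspases, had 33.4, 29.7, 26.8 and 28.5 CPM in KO and 41.1, 32.3, 38.3 and 31.0 CPM in WT. Its levels in the 2 genotypes overlapped. No late change was called in either genotype, with log2 values of -0.27 ± 0.19 in KO and -0.25 ± 0.18 in WT (adjusted p = 0.474 in KO and 0.525 in WT, edgeR).

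The TRAF adaptors differed from each other in size of response. Traf1 (chromosome 2, 34941750 to 34961772), a TRAF without the RING domain that binds TRAF2 and the cIAPs, had 8, 2, 4 and 5 counts in KO and 6, 28, 115 and 91 counts in WT. On the CPM scale these were 0.479, 0.177, 0.318 and 0.376 in KO and 0.400, 2.02, 8.24 and 6.58 in WT. At 0 min both genotypes were near the limit of detection, and the KO libraries stayed there while the WT libraries after TNF stood well above it. The late log2 fold change was 4.18 ± 0.48 in WT (adjusted p = 0.000284, edgeR), the largest among the 10 genes, and -0.45 ± 0.68 in KO (adjusted p = 0.775). The difference was -4.63 ± 0.91 (adjusted p = 0.0493), a call lost in 7 of 16 alternative settings, among them the fits without the KO 45 min or the KO 60 min library. Against 15 min it was -0.93 (adjusted p = 1).

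Traf2, the adaptor that brings the cIAPs to the receptor, had 14.2, 16.8, 16.3 and 20.1 CPM in KO and 15.4, 14.3, 26.9 and 24.1 CPM in WT. Its late WT value of 0.73 ± 0.21 missed the threshold (adjusted p = 0.0627, edgeR) and passed it in 4 of 17 alternative settings, such as 15 min as the baseline (0.83, adjusted p = 0.0456). The KO value was 0.36 ± 0.21 (adjusted p = 0.394). The difference of -0.37 ± 0.29 was not called (adjusted p = 0.905).

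Cflar encodes c-FLIP, the catalytically inactive relative of caspase-8 that restrains it. It had 55.6, 61.5, 78.6 and 66.5 CPM in KO and 57.7, 54.2, 78.0 and 79.8 CPM in WT. Ranges in the 2 genotypes overlapped almost fully, and late log2 values of 0.38 ± 0.17 in KO and 0.45 ± 0.17 in WT were not called (adjusted p = 0.276 in KO and 0.176 in WT, edgeR). The difference was -0.07 ± 0.24 (adjusted p = 0.992), which does not show that the responses were alike.

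The BCL2-family members guard the mitochondrial membrane. Mcl1, a short-lived protein's gene and the highest member at every time, had 122, 169, 149 and 134 CPM in KO and 107, 150, 134 and 138 CPM in WT. Both genotypes were highest at 15 min, although under total-count scaling the WT log2 ratio to 0 min was 0.15 at 15 min and 0.21 at 60 min. Its late log2 values were 0.22 ± 0.16 in KO and 0.35 ± 0.17 in WT, neither called (adjusted p = 0.522 in KO and 0.285 in WT, edgeR).

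Bcl2l1, which encodes BCL-XL, was the 1 member higher in KO than in WT in the genotype test. It had 42.5, 48.0, 64.2 and 66.2 CPM in KO and 36.2, 38.7, 42.3 and 40.5 CPM in WT. By TMM scaling every KO library was thus above every WT library, the closest pair being 42.5 and 42.3 CPM. Under total-count scaling KO was 1.04 times WT at 0 min, and KO at 15 min was 0.889 of KO at 0 min. There the KO 15 min library lay below the WT 0 min library. The share of all genes whose genotypes separate, as for Birc3 and Sod2, was not computed. The KO late value of 0.62 ± 0.17 missed the threshold (adjusted p = 0.0812, edgeR), and the WT value was 0.19 ± 0.17 (adjusted p = 0.596). The difference of 0.43 ± 0.23 was not called (adjusted p = 0.768).

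Ier3 (chromosome 17, 35821684 to 35822923) is an immediate early gene whose product is linked to survival and to stress signalling. By TMM scaling it was the 1 member counted as at least 2-fold up at 15 min in both genotypes. It had 6.22, 15.5, 22.3 and 12.7 CPM in KO and 5.73, 30.4, 30.2 and 25.8 CPM in WT. In WT its counts at 15 and 45 min were nearly the same, 422 and 421, and in KO it was highest at 45 min. Under total-count scaling its WT ratio to 0 min was 4.19 at 15 min and 4.37 at 45 min. Late log2 fold changes were called in both genotypes, at 1.49 ± 0.31 in KO (adjusted p = 0.0357) and 2.29 ± 0.32 in WT (adjusted p = 0.00113, edgeR). The difference of -0.80 ± 0.44 was not called (adjusted p = 0.768). With 15 min as the baseline the log2 values were 0.18 in KO and -0.12 in WT, neither called (adjusted p = 0.824 in KO and 0.865 in WT). The KO call was lost in 6 of 17 alternatives, including the fit without the KO 45 min library.

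Sod2 (chromosome 17, 13007839 to 13018119) encodes the manganese superoxide dismutase of mitochondria. It had 6.46, 5.56, 6.76 and 5.93 CPM in KO and 6.93, 8.21, 14.7 and 14.6 CPM in WT. The KO libraries all lay below the WT ones, by little at 0 min and by more at the late times. The closest pair was 6.76 CPM (KO 45 min) and 6.93 CPM (WT 0 min), whose intervals of counting error overlapped. A share of all genes that separate so was not computed. The late log2 fold change was -0.03 ± 0.24 in KO (adjusted p = 0.969) and 1.08 ± 0.23 in WT (adjusted p = 0.0169, edgeR). The WT call was lost in 4 of 17 alternatives, among them DESeq2 and the 15 min baseline (0.83, adjusted p = 0.0641). The difference of -1.11 ± 0.33 was not called (adjusted p = 0.278).

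**Figure D3:**
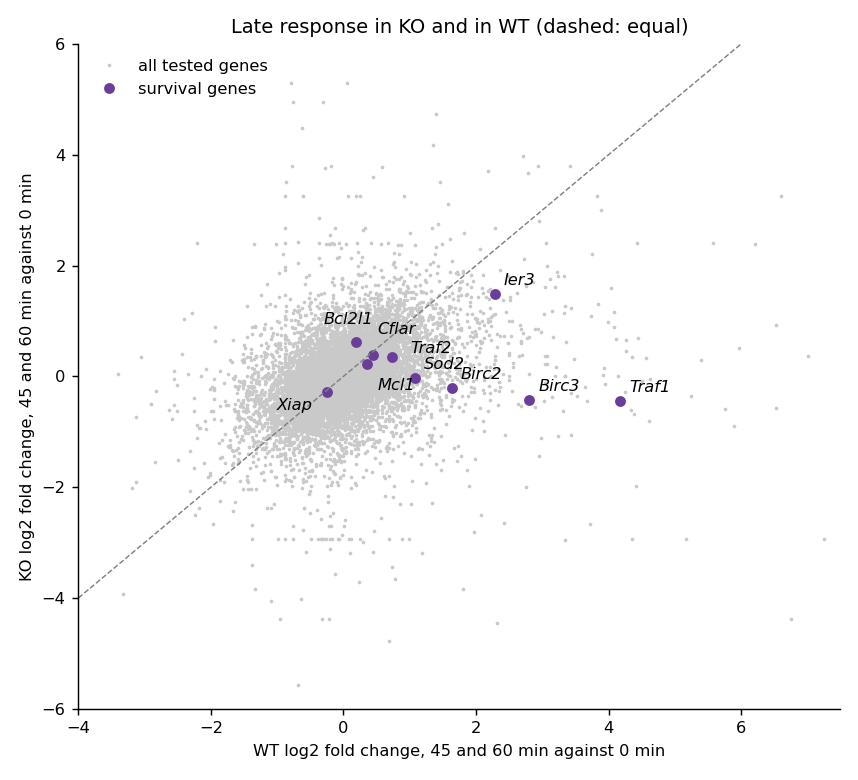
Late log2 fold change in KO (vertical axis) against that in WT (horizontal axis), with all 15049 tested genes in grey, the 10 survival genes in purple and a dashed line of equal change. Birc2, Birc3 and Traf1 lie far to the right near a KO value of 0, and Ier3 lies closest to the line among the 5 genes called in WT.

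Ratios to 0 min at single times describe when the levels moved. A ratio was counted when it was at least 2-fold, its exact 95% Clopper-Pearson interval of counting error left out 1, and the higher library had at least 20 counts; there is no test, and intervals cover counting error only. At 15 min Ier3 alone was counted in KO, where 0.679% of genes were, and Traf1 and Ier3 in WT, where 0.99% were. Ier3 was 2.48-fold its 0 min level in KO (interval 1.94 to 3.20) and 5.30-fold in WT (4.19 to 6.76). Under total-count scaling its KO ratio at 15 min was 1.96, short of 2-fold. Traf1 was 5.04-fold in WT at 15 min (2.05 to 14.9), from 28 counts against 6.

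At 45 and 60 min Ier3 was again the sole member counted in KO, where 2.98% and 3.46% of genes were counted at those times. In WT the counted members were Birc2, Birc3, Traf1, Ier3 and Sod2 at both times, against 4.72% of genes at 45 min and 5.74% at 60 min. Under total-count scaling Sod2 in WT fell short of 2-fold, at 1.76 at 45 min and 1.89 at 60 min. Birc3 stood at 7.72-fold at 45 min (6.56 to 9.13) and 6.23-fold at 60 min (5.28 to 7.39), whereas Birc2 stood at 2.94-fold (2.60 to 3.33) and 3.29-fold (2.91 to 3.73). Between 45 and 60 min in WT the interval of the ratio lay below 1 for Birc3 (0.741 to 0.880) and above 1 for Birc2 (1.02 to 1.22). Traf1 reached 20.6-fold at 45 min in WT, with a wide interval (9.18 to 57.3) because it started from 6 counts. Between 45 and 60 min in KO, Ier3 stood at a ratio of 0.568 (0.467 to 0.690), and in WT at 0.856 (0.741 to 0.988).

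**Figure D4:**
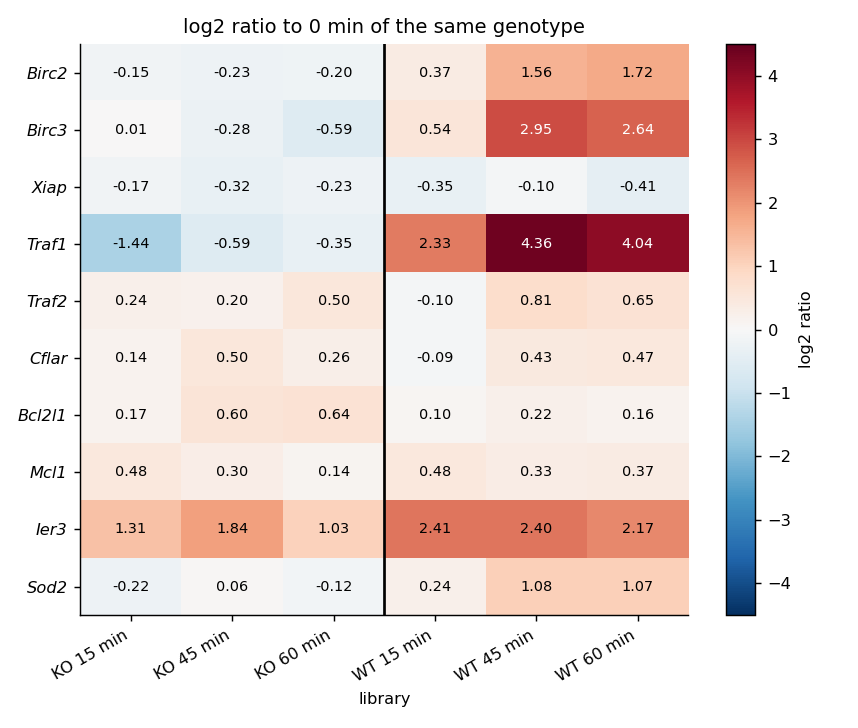
Log2 ratio of each library to the 0 min library of the same genotype, for the 10 genes (rows) and the KO and WT libraries (columns), with red for higher and blue for lower. Ier3 is positive in all 6 libraries, and Birc2, Birc3, Traf1 and Sod2 reach at least 1.07 at both late times in WT.

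Over all times together, matched by time, 5 of the 10 genes were lower in KO than in WT and 1 was higher, against 9.44% of all genes lower and 6.81% higher. The fit takes 1 genotype difference for all times, so a difference that grows after TNF enters the spread it is tested against. For the 5 lower genes, the single-library KO to WT ratios at 0 min were 1.04 (Birc2), 0.779 (Birc3), 1.20 (Traf1), 1.09 (Ier3) and 0.932 (Sod2). The median log2 difference of the 10 was -0.45, against 0.01 over all genes. Traf1 was lower by the most, with a log2 fold change of -3.37 ± 0.54 (adjusted p = 0.00238, edgeR), and Birc3 stood at -2.16 ± 0.50 (adjusted p = 0.0158). Birc2 (-1.01 ± 0.28), Sod2 (-0.79 ± 0.18) and Ier3 (-0.63 ± 0.16) were also lower, with adjusted p of 0.0334, 0.0170 and 0.0276. Bcl2l1 was higher at 0.46 ± 0.10 (adjusted p = 0.00949), a call lost in 4 of 19 alternatives; under total-count scaling it stood at 0.28 (adjusted p = 0.101). Xiap (-0.27 ± 0.09, adjusted p = 0.0820), Traf2 (-0.23 ± 0.14, 0.296), Cflar (-0.03 ± 0.09, 0.846) and Mcl1 (0.12 ± 0.07, 0.320) were not called.

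The number of genotype calls depended on the times used, on the late libraries and on the tool. Without the WT 45 min library, or without the KO 45 min library, 1 of the 10 genes was called, and without the WT 60 min or the KO 60 min library 2 were. Ier3 was also not called without the WT 15 min library (adjusted p = 0.126, edgeR) or the KO 15 min library (0.125). DESeq2 called 4 members, without Birc2 (adjusted p = 0.170) and Birc3 (0.0514), and so did robust empirical Bayes, without Birc2 (0.264) and Birc3 (0.231). Traf1 kept its call in all 19 alternatives. Some settings gained calls. The fit on the 45 and 60 min libraries alone called 8 members, among them Traf2 (-0.50, adjusted p = 0.00208, edgeR) and Xiap (-0.32, adjusted p = 0.0426). Xiap was also called lower in KO under total-count scaling (-0.45, adjusted p = 0.0164, edgeR). Without the KO 0 min library, which stood apart, 6 were called. Summed leukocyte markers were lower and summed endothelial markers higher in KO at every time, with the ranges given above, and their part in these differences was not tested.

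The ratio of KO to WT was also read at each time. At 15 min 1 of the 10 genes, Traf1, was counted as at least 2-fold lower in KO, against 4.09% of genes. At 45 min Birc2, Birc3, Traf1 and Sod2 were, against 6.49% of genes, and at 60 min these and Ier3 were, against 6.67%. Ier3 was already at 0.509 of its WT level at 15 min (0.424 to 0.608), against 0.492 at 60 min (0.407 to 0.592). Under total-count scaling Ier3 (0.446) and Birc3 (0.474) passed 2-fold at 15 min too, and Traf2 (0.490) did at 45 min. The counts by time thus depend on the threshold and the scaling. Birc3 in KO was 0.540 of its WT level at 15 min (0.422 to 0.687) and 0.0833 of it at 45 min (0.0665 to 0.103) and at 60 min (0.0652 to 0.105). Bcl2l1 ran the other way, at 1.17 times its WT level at 0 min (1.05 to 1.31), 1.24 at 15 min (1.10 to 1.40), 1.52 at 45 min (1.36 to 1.69) and 1.64 at 60 min (1.47 to 1.82). Under total-count scaling its intervals at 0 min (0.925 to 1.16) and 15 min (0.963 to 1.23) held 1.

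**Figure D5:**
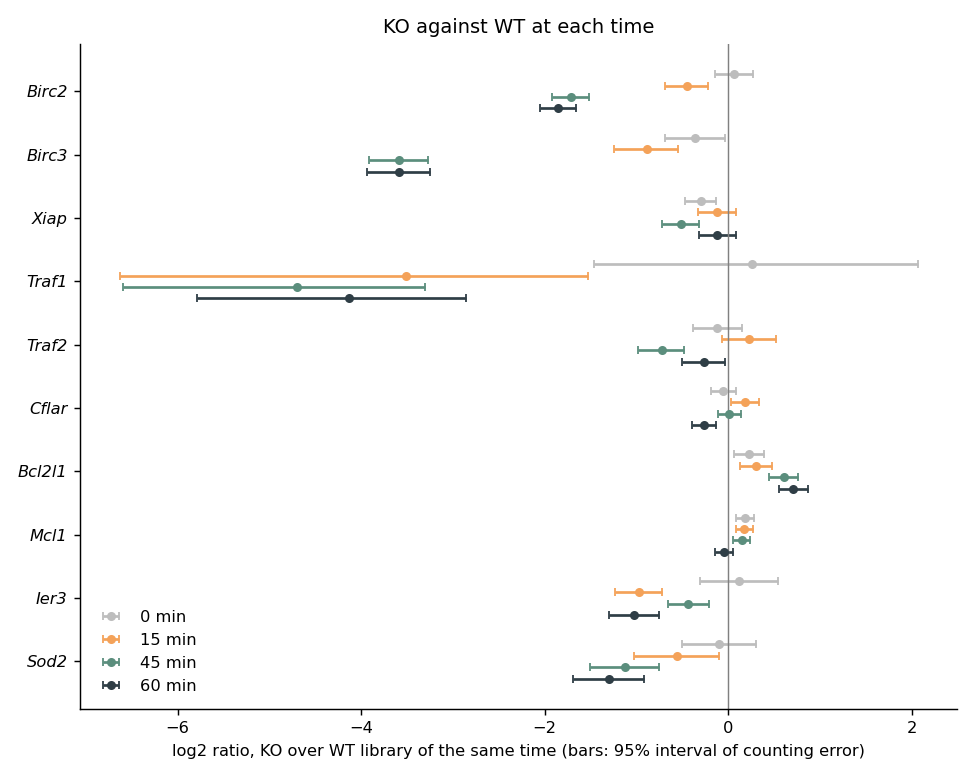
Log2 ratio of the KO library to the WT library of the same time for each gene, with 1 point per time (0, 15, 45 and 60 min) and bars for the 95% interval of counting error. Traf1 and Birc3 are farthest left at 45 and 60 min, and Bcl2l1 is right of 0 at every time.

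Across the 8 libraries, Birc2, Birc3, Traf1 and Sod2 had like profiles, with Pearson's r of log2 CPM between 0.970 and 0.985 in every pair of these; the points share libraries, and the 2 late WT libraries set them apart. Among 9176 genes averaging 50 counts or more, the 3 most alike to Birc3 were Ripk2 (r = 0.995), Vcam1 (0.994) and Nfkbie (0.991), and those most alike to Birc2 were Slc2a6 (0.994), Sun2 (0.991) and Gbp5 (0.991). Traf1 was most like Trp53 (0.996), Ccl20 (0.990) and Cxcl10 (0.989). Sod2 was most like Nfkbie (0.990), Fas (0.990) and Slc2a6 (0.989). Ier3 had weaker likeness, with Pnrc1 (0.973) and Myo1c (0.951) among the most alike, and Bcl2l1 was most like Rpl17 (0.990), Capn2 (0.988) and Cep295nl (0.986).

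Other genes of the death and survival pathway were counted in 9 lists of 88 genes, of which 1 had no row by its symbol. Late calls in these lists stand against 4.17% of all genes higher in WT, 1.32% higher in KO and 0.492% lower in the difference. The receptor and death complex list had 21 genes tested. In WT late after TNF 2 rose, Tnfaip3, the A20 deubiquitinase (5.39 ± 0.35, adjusted p = 2.70e-06, edgeR), and its partner Tnip1 (1.97 ± 0.19, adjusted p = 8.82e-05), none in KO did, and both differed between genotypes (KO minus WT, Tnfaip3 -5.09 ± 0.55 and Tnip1 -2.18 ± 0.27). Tnfaip3 had 42, 22, 51 and 29 counts in KO and 109, 1086, 5115 and 3368 in WT. Over all times 7 of the 21 were lower in KO.

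Of the 5 other TRAF genes tested 1, Traf3, which helps the cIAPs degrade NIK, rose in WT (1.75 ± 0.31, adjusted p = 0.00514, edgeR) and differed in response (-2.30 ± 0.42, adjusted p = 0.0324). It had 327, 231, 129 and 217 counts in KO and 357, 333, 850 and 1370 in WT. Genes with the opposite role also moved. Among 9 pro-apoptotic BCL2 genes tested 2 rose in WT and none in KO: Bid, which links caspase-8 to mitochondria (2.70 ± 0.25, adjusted p = 5.01e-05), and Bbc3, encoding PUMA (0.88 ± 0.22, adjusted p = 0.0355). Bid had 96, 53, 82 and 114 counts in KO and 89, 83, 575 and 496 in WT, and its response differed by -2.30 ± 0.35 (adjusted p = 0.0102).

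Of 6 other survival genes linked to NF-kB, 4 rose in WT, Pim1 (3.16 ± 0.28), Gadd45b (3.07 ± 0.29), Tifa (1.97 ± 0.49) and Tnfaip8 (0.94 ± 0.23), with adjusted p of at most 0.0346 (edgeR), and 1, Gadd45b, rose in KO (1.99 ± 0.27, adjusted p = 0.00558). Pim1, a survival kinase, was the 1 whose responses differed by the test (-2.45 ± 0.37, adjusted p = 0.0102). It had 112, 100, 155 and 129 counts in KO and 38, 115, 335 and 297 in WT. Its 0 min baseline was thus higher in KO than in WT, and over all times it was not called between genotypes. Among 18 antioxidant genes 1 rose in WT, Txnrd1 (0.78 ± 0.19, adjusted p = 0.0357), and 1 in KO, Hmox1 (1.19 ± 0.25, adjusted p = 0.0334), with no difference in response called. The shares over all genes were 4.17% in WT and 1.32% in KO. Of 3 other IER genes 1, Ier5l, rose in KO (1.53 ± 0.22, adjusted p = 0.00559) and none in WT. Of 10 genes for caspases, the apoptosome and IAP antagonists, 1 rose in WT, Htra2 (0.81 ± 0.22, adjusted p = 0.04999), and none in KO.

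The lists of other anti-apoptotic BCL2 genes and other IAP genes were tested only in part. Of 6 other anti-apoptotic BCL2 genes 2 passed the count filter, and of 7 other IAP genes 4 did. None of those tested had a late call in WT, in KO or in the difference. Over all times Naip2 and Naip6, inflammasome sensors of that family, were lower in KO (adjusted p = 0.000698 and 0.00648, edgeR), with 0, 1, 0 and 0 counts of Naip2 in KO and 21, 18, 11 and 6 in WT. Naip6 had 4, 2, 1 and 1 counts in KO and 10, 20, 10 and 8 in WT. Leukocyte markers were lower in KO in the same libraries, as given above, and their part was not tested.

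Genotype calls over all times in these lists stand against the 9.44% of all genes lower in KO and 6.81% higher. In the receptor and death complex list the 7 lower in KO were Tnfaip3 (-5.48 ± 0.63, adjusted p = 0.000324, edgeR), Cyld, Tab3, Tnip1 and 3 others, and none was higher. Cyld, a deubiquitinase that restrains NF-kB, stood at -0.67 ± 0.13 (adjusted p = 0.00540). Among the 10 caspase, apoptosome and antagonist genes Xaf1, an antagonist of XIAP, was lower in KO (-1.25 ± 0.14, adjusted p = 0.000230) and Casp9, the apoptosome's caspase, higher (0.58 ± 0.15, adjusted p = 0.0254). Xaf1 had 169, 94, 68 and 131 counts in KO and 318, 231, 267 and 306 in WT, with no overlap, for which a share over all genes was not computed. Sod3, the extracellular superoxide dismutase, was the 1 of 18 antioxidant genes lower in KO (-1.45 ± 0.27, adjusted p = 0.00563), and none was higher. Bid (-1.45 ± 0.37, adjusted p = 0.0232), Traf3 (-1.42 ± 0.39, adjusted p = 0.0334) and 3 of the 6 other survival genes, Tifa, Tnfaip8 and Gadd45b, were lower in KO as well. Ier5l, among the other IER genes, was higher in KO (0.71 ± 0.15, adjusted p = 0.0103, edgeR).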

How the data were processed

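The authors deposited whole-number counts per gene, 1 column per library, with exon coordinates and lengths, per the file headers. The submitters' processing notes name cutadapt 1.12, STAR, featureCounts 1.5.0, DESeq2 and mm10; no source used here gives the strand setting or the treatment of multiply mapped reads. No member shares exon bases with another gene in the table. The members and lists were chosen with earlier results of these data known, and the list genes named with values are those called, at most the 4 with the smallest p per list and contrast.

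The low-count filter asked for 10 or more counts in 2 or more libraries and left 15049 genes. Scaling was by TMM, with factors from 0.817 to 1.21, and the tests came from edgeR 4.0.16 in R 4.3.3. The response fit had 6 cell means and 2 residual degrees of freedom, and the genotype fit a time block and 3. SE is the log2 fold change over the square root of F. CPM, ratios and intervals were computed here. A count of 0 allows up to 3 counts, 0.192 to 0.243 CPM. Likeness used log2(CPM + 0.5). The likeness of 1 gene is not reported here. In tests on simulated data for 15049 genes, 4-fold changes were recovered at 81.8% for the late WT response, 81.8% for KO, 65.2% for their difference and 95.5% for genotype. For 2-fold changes these were 43.3%, 47.8%, 10.4% and 83.6%. The simulated genotype change was equal at all times, with spread taken from the response fit. Its recovery therefore does not describe genes that differ mainly late, such as Birc2 and Birc3. Alternatives were RLE and total-count scaling, other filters, DESeq2 1.42.0, limma-voom 3.58.1, robust empirical Bayes, other baselines and times, no time block, and leaving out each library; the 15 min baseline and total counts without the 3 largest gene models were chosen after seeing the data.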

Additional observations from a re-analysis of the deposited data

Results flagged for a closer look

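The late responses of 3 genes differed between genotypes in the direct test (edgeR, KO minus WT). Birc3 differed by -3.23, a call kept in all 16 alternatives, with adjusted p up to 0.027. Birc2 differed by -1.85, a call lost in 2 of 16 alternatives, with no filter on low counts and with 15 min as the baseline. Traf1 differed by -4.63, a call lost in 7 of 16, with adjusted p over the alternatives between 0.00234 and 1.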

How the results depend on the processing

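No paired analysis was possible because the labels give no replicate numbers; genotypes were matched by time only, through the time block. Of 690 values of single genes under alternatives, 613 kept their direction and side of the threshold, 49 lost a call, 9 gained one and 19 changed sign. The cause of a change was not tested.

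Under total counts the median log2 value of all genes was -0.22 for the late WT response, -0.21 for KO and -0.17 for genotype, against -0.004, -0.01 and 0.01 by TMM. It turned the splits of higher against lower calls to 304 and 280 in WT (628 and 197 by TMM), 57 and 156 in KO (198 and 78), and 477 and 2902 for KO against WT (1025 and 1421). Without the 3 largest gene models the splits were 529 and 383 in WT and 191 and 180 in KO. Under total counts Bcl2l1 read -0.0191 for the late WT response and Mcl1 -0.0647 for KO against WT, and 0 members were called for the late KO response; without the 3 largest models the Xiap difference read 0.0125. With no filter on low counts 278 genes were called for the late WT response, 17 for KO and 14 for the difference, with 0 members called for KO and 1 for the difference. DESeq2 called 426, 155 and, for KO against WT, 1535 genes. limma-voom called 0 members for KO. With no time block, KO against WT gave 1067 genes and 2 members.

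With 0 and 15 min together as the baseline, 1669 genes were called for WT, 1144 for KO and 198 for the difference. There Mcl1 (-0.0376) and Sod2 (0.0667) changed sign for KO, and Ier3 (0.0912) for the difference. With 15 min alone, 124 genes and 0 members were called for KO, and 19 genes and 1 member for the difference. There Xiap (0.10), Mcl1 (-0.13) and Ier3 (-0.12) changed sign for WT, Traf1 (0.94), Mcl1 (-0.26) and Sod2 (0.19) for KO, and Ier3 (0.30) for the difference.

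Leaving out each library gave 731 to 1014 genes called for WT, 169 to 776 for KO, 51 to 160 for the difference and 1154 to 2422 for KO against WT, and 5 to 6, 0 to 1, 2 to 3 and 1 to 6 members. Signs turned within these ranges for Sod2 in KO (-0.12 to 0.0662), Cflar in KO against WT (-0.10 to 0.0470) and in the difference (-0.19 to 0.0494), and Xiap in the difference (-0.17 to 0.16). Where a late library is left out, the lone one is assumed to vary like the other groups.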
